A study of Mus musculus with 8 samples.

Results

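The ends of protein-coding genes were examined for RNA:DNA hybrids mapped by DRIP-seq, in which DNA fragments holding such hybrids are pulled down with an antibody and sequenced. An end was the last base of a protein-coding gene in the GENCODE M21 annotation of mm10, and its window was the 1 kb to either side. Windows within 1 kb of any annotated transcript start were left out, since hybrids at a promoter could not be told apart from hybrids at an end there. This left 15999 of 21951 ends (72.9%), whose windows covered 30.8 Mb or 1.13% of the genome. An end had a peak when a called peak overlapped its window by at least 1 bp. The peaks that did so numbered 1216 of 87613 in GFP mock, 1238 of 60219 in GFP DOX, 2246 of 91097 in Cre mock and 1601 of 105081 in Cre DOX. A peak had been called at 3323 of the 15999 ends (20.8%) in at least 1 of the 4 lists.

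All libraries came from *Rtel1*F/F;WT RNH1-GFP mouse embryonic fibroblasts (MEFs), whose *Rtel1* alleles are floxed and in which doxycycline induces WT RNaseH1 fused to GFP. GFP mock cells received GFP adenovirus and no doxycycline, so that *Rtel1* stayed in place and the transgene stayed uninduced. GFP DOX cells received GFP adenovirus, and 48 h later doxycycline at 2 μg/ml for 48 h. Cre mock cells received Cre-GFP adenovirus, which deletes *Rtel1*, and no doxycycline, and Cre DOX cells received Cre-GFP adenovirus followed by the same doxycycline treatment. All 4 groups carried an adenovirus and the transgene, but the virus with Cre was in the Cre groups alone and the transgene was induced in the DOX groups alone. Effects of Cre and of *Rtel1* loss, or of doxycycline and of induced RNaseH1, cannot be told apart here. GFP came both from the virus and from the induced fusion protein. There was 1 DRIP library per group, pooled from 3 immunoprecipitations, and the 4 input samples were not analysed here. Without replicates no difference could be set against replicate error, no test between groups was made, and all intervals below are exact (Clopper-Pearson) 95% intervals that cover counting error only, while the limit given for a count of 0 is 3 counts of the total.

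R-loops are made of an RNA hybridised to its DNA template and of the displaced DNA strand. Behind the polyadenylation signal, where the nascent transcript is cut, RNA polymerase II pauses over G-rich pause sites, and hybrids there have been linked to transcription termination, in which the exonuclease XRN2 degrades the uncapped remainder of the RNA. RTEL1 is a helicase that unwinds D-loops and G-quadruplexes (G4s), four-stranded structures of G-rich DNA. RNaseH1 cuts the RNA strand of RNA:DNA hybrids. Where 2 genes point at each other, the tails of their transcripts can meet, and such convergent ends are transcribed from both sides.

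Sequences at 5 ends show what the called peaks held. They are taken from the mm10 reference on the coding strand of the gene, 5′ to 3′, and runs of at least 3 G are in capitals. None overlaps an annotated untranslated exon. *Rps24*, *Col1a1* and *Akirin1*, of which *Rps24* and *Col1a1* were singled out after their values were seen, are shown because peaks of several lists lay at or past the end, *Slc39a2* as an end with a peak in Cre mock alone and *Wif1* for GFP mock alone.

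*Rps24*, chr14:24496960-24497199 (plus strand): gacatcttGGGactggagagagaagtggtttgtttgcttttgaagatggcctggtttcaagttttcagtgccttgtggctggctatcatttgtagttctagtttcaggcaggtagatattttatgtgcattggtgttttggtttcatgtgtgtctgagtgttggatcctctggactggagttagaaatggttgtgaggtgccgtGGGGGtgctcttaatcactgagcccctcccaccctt
*Col1a1*, chr11:94953757-94953992 (plus strand): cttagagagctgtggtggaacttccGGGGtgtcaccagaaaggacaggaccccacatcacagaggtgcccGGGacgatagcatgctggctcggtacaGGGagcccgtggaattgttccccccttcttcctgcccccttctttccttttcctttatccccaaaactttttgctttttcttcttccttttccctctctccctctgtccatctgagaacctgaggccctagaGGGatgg
*Akirin1*, chr4:123733750-123733851 (minus strand): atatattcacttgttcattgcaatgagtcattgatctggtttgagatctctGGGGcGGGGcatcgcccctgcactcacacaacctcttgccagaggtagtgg
*Slc39a2*, chr14:51897723-51897943 (plus strand): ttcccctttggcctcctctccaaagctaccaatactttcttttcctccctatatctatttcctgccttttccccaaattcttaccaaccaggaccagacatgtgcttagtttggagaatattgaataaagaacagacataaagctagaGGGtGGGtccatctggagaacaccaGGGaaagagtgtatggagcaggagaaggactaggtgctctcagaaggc
*Wif1*, chr10:121100933-121101062 (plus strand): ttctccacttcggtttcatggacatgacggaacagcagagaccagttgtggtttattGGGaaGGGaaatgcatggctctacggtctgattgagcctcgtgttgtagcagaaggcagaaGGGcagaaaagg

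The stretch of *Rps24*, a ribosomal protein gene, starts at the first base past the end and was shared by peaks of GFP DOX, Cre mock and Cre DOX. That of *Col1a1*, which encodes a chain of type I collagen, starts 715 bp past its end and was shared by the same lists. That of *Akirin1*, one of the genes at which G-rich pause sites have been studied, starts 708 bp past its end and was shared by GFP DOX and Cre mock. That of *Slc39a2* lies 978 to 1198 bp past its end, so that most of it is outside the window of 1 kb. That of *Wif1* lies 283 to 412 bp past its end. For *Rps24*, *Col1a1* and *Akirin1* the polyadenylation signal is printed too, from its first base (capitals) to the last base of the gene.

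*Rps24*, chr14:24496935-24496959 (plus strand): AATAAAcattgaatggaaaactagg
*Col1a1*, chr11:94953018-94953042 (plus strand): AATAAAgcatgtggaaatgacccaa
*Akirin1*, chr4:123734559-123734578 (minus strand): AATAAAacctacaaaaacta

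The signal (AATAAA or ATTAAA on the strand of the transcript, within the last 51 bases) was found at 74.5% of all 15999 ends. By number of lists with a peak it ranged from 72.5% to 74.8%, with 74.8% (74.0 to 75.5) of the ends without a peak and 74.2% (69.4 to 78.6) of the 368 ends with a peak in all 4 lists. It was found at 71.9% (69.3 to 74.5) of the ends with a peak in GFP mock, the lowest share of the 4 lists.

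The lists themselves differed before any gene end was considered. They held between 60219 and 105081 peaks, with median widths between 295 bp in GFP mock and 513 bp in Cre DOX. The read depth of the libraries is not part of a peak list and is unknown. Repeats weighed on the lists to different degrees. In Cre DOX 24.8% of all peaks were at most 50% repeat-masked, and in Cre mock 45.9%, with 36.2% in GFP mock and 36.9% in GFP DOX. Peaks at gene ends were mostly outside repeats in every list, with 76.9% to 88.3% at most 50% masked. Comparisons of peak numbers and of absent peaks between lists are therefore given for such peaks too, while classes and profiles count all peaks. Peaks in *Rtel1* itself say nothing about its deletion, which a peak list cannot show.

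Ends with a peak were most frequent upon *Rtel1* deletion without doxycycline. A peak was called at 1212 ends in GFP mock (7.58%, 7.17 to 8.00), 1195 in GFP DOX (7.47%, 7.07 to 7.89), 2087 in Cre mock (13.0%, 12.5 to 13.6) and 1557 in Cre DOX (9.73%, 9.28 to 10.2). The intervals of the GFP lists overlapped, and those of Cre mock and Cre DOX lay apart from them and from each other. Counting all peaks, the density of midpoints in the windows was 0.992 times that of the genome in both GFP mock and Cre DOX, 1.40 times in GFP DOX and 1.69 times in Cre mock. Counting peaks at most 50% masked, it was 2.12 times in GFP mock and between 3.11 and 3.33 times in the other lists, with no allowance for how much of the windows and of the genome is masked. Peaks covered 393 kb of the windows in GFP mock, 545 kb in GFP DOX, 1047 kb in Cre mock and 794 kb in Cre DOX. Scores of these peaks (10 times the −log10 q-value of the peak caller) were like those elsewhere in the same list, with medians of 18, 16, 19 and 17 in the same order against 18, 17, 19 and 18 for the rest. GC content set them apart, with medians between 48.5% and 51.8% against 41.5% to 45.9% for the other peaks of their lists.

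**Figure D1:**
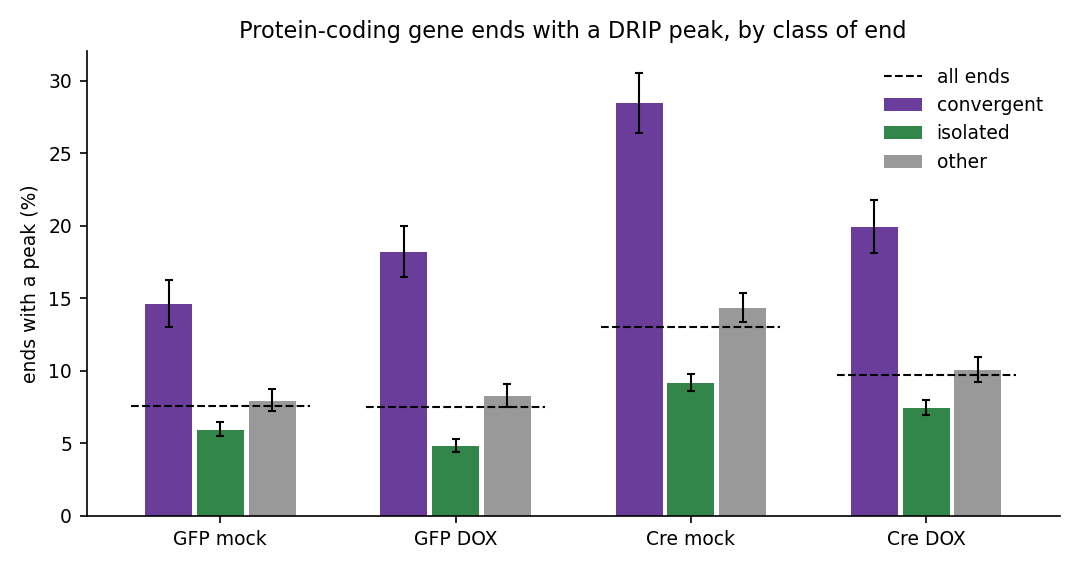
Share of protein-coding gene ends with a DRIP peak (y axis, %) in each of the 4 lists (x axis), for convergent (n = 1887), isolated (n = 9184) and other ends (n = 4928). Error bars are exact 95% counting intervals and dashed lines give the share of all 15999 ends; convergent ends stand highest in every list and reach 28.5% in Cre mock.

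Deletion of *Rtel1* came with more peaks at gene ends, and more so than in the list as a whole. Ends with a peak in Cre mock were 1.72 times as many as in GFP mock (1.60 to 1.85), whereas all peaks were 1.04 times as many. The 2 lists shared 690 ends, 56.9% of those of GFP mock and 33.1% of those of Cre mock. Of the 2246 end peaks of Cre mock, 71.9% (70.0 to 73.8) overlapped no GFP mock peak, beside 64.8% of all Cre mock peaks. Of the 1216 end peaks of GFP mock, 51.6% (48.8 to 54.5) overlapped no Cre mock peak, beside 61.5% of all GFP mock peaks. Among peaks at most 50% masked, set against every peak of the other list, the first share was 72.3% (70.3 to 74.3) at ends and 73.4% (73.0 to 73.9) in the whole list, and the second 48.8% (45.5 to 52.0) and 62.8% (62.3 to 63.4). The number of peaks with their midpoint in an end window was 1.77 times as large, or 1.99 times for peaks at most 50% masked. In windows around transcript starts the same ratios were 1.26 and 1.32, in the rest of gene bodies 1.203 and 1.526, and between genes 0.8805 and 0.9497. All 3 classes of ends had more peaks, with ratios of ends of 1.95 for convergent, 1.54 for isolated and 1.81 for other ends.

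**Figure D2:**
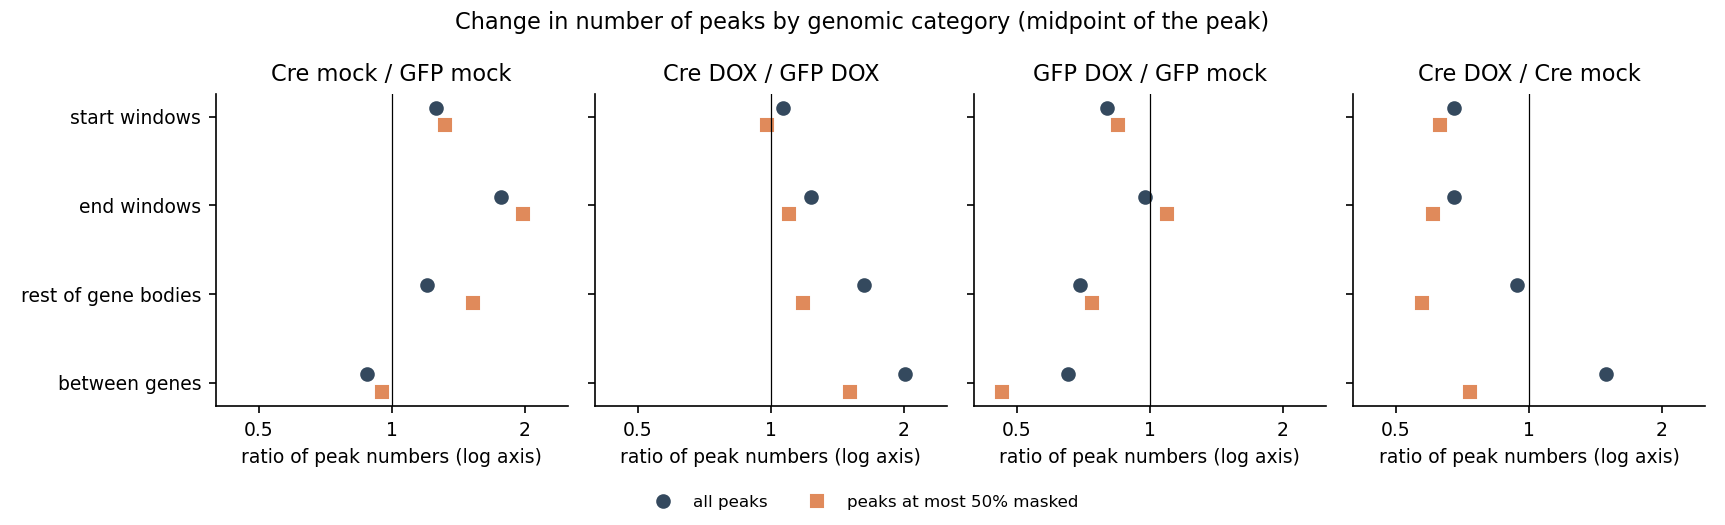
Ratio of the number of peaks between 2 lists (x axis, log scale) by the category in which the midpoint of the peak lay (rows), for all peaks (circles) and for peaks at most 50% repeat-masked (squares). In Cre mock over GFP mock the end windows lie farthest to the right, at 1.77 and 1.99, while in Cre DOX over Cre mock they lie at 0.678 and 0.605.

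Induction of RNaseH1 in cells that kept *Rtel1* left the number of ends with a peak much as it was, while the list as a whole was smaller. GFP DOX had 0.986 times as many ends with a peak as GFP mock (0.910 to 1.07) and 0.687 times as many peaks in all. This ratio lay on both sides of 1 under other settings, from 0.860 (a −log10 q of at least 2) to 1.44 (equal numbers of peaks, the 60219 of highest score). The 2 lists shared 534 ends, 44.7% of those of GFP DOX and 44.1% of those of GFP mock. Of the end peaks of GFP mock, 63.9% (61.1 to 66.6) were absent from GFP DOX, beside 69.4% of all peaks. Of the end peaks of GFP DOX, 65.3% (62.6 to 68.0) were absent from GFP mock, beside 57.0% of all peaks. Among peaks at most 50% masked the first share was 60.3% (57.1 to 63.4) at ends and 73.4% (72.9 to 73.8) in the whole list, and the second 64.8% (61.9 to 67.6) and 63.6% (63.0 to 64.2). The classes went separate ways. Convergent ends with a peak were 1.25 times as many with doxycycline (1.06 to 1.47), isolated ends 0.813 times (0.716 to 0.923) and other ends 1.04 times (0.906 to 1.202). The counts behind these intervals are not independent. Of the convergent ends, 179 had a peak in both lists, and paired ends can share a peak. By midpoint and among peaks at most 50% masked, the ratio was 1.09 in end windows, 0.848 around transcript starts, 0.738 in the rest of gene bodies and 0.463 between genes.

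Upon *Rtel1* deletion, induction of RNaseH1 came with fewer peaks at ends while the list was larger. Cre DOX had 0.746 times as many ends with a peak as Cre mock (0.698 to 0.797), against 1.15 times as many peaks in all. The 2 lists shared 923 ends, 59.3% of those of Cre DOX and 44.2% of those of Cre mock. Of the end peaks of Cre mock, 63.8% (61.8 to 65.8) were absent from Cre DOX, beside 51.3% of all peaks. Of the end peaks of Cre DOX, 48.8% (46.4 to 51.3) were absent from Cre mock, beside 63.6% of all peaks. For Cre mock peaks the order turned outside repeats. Among peaks at most 50% masked, 63.8% (61.7 to 66.0) of the Cre mock peaks at ends and 74.9% (74.4 to 75.3) of those in the whole list were absent from Cre DOX, and of the Cre DOX peaks 42.9% (40.1 to 45.7) at ends and 59.1% (58.5 to 59.7) in the whole list were absent from Cre mock. Numbers of peaks at most 50% masked were 0.605 times at ends by midpoint and 0.623 times in the whole list. Counting all peaks, these ratios were 0.678 and 1.15. By score, with repeats included again, the weakest Cre mock calls (score under 20) were absent from Cre DOX at 74.8% at ends and 57.6% in all. With a score of 30 and over they were 48.0% (42.2 to 53.8) and 43.9% (43.1 to 44.8). Convergent ends with a peak were 0.700 times as many with doxycycline (0.612 to 0.800), isolated ends 0.813 times (0.734 to 0.900) and other ends 0.702 times (0.624 to 0.788).

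In the presence of induced RNaseH1, cells without *Rtel1* had 1.30 times as many ends with a peak as cells with it (1.21 to 1.41), beside 1.74 times as many peaks in all. Outside repeats the 2 ratios were close, 1.14 (1.05 to 1.24) for ends and 1.17 for all peaks at most 50% masked. By class the ratio was 1.10 for convergent, 1.54 for isolated and 1.22 for other ends. Of the Cre DOX end peaks, 62.5% (60.1 to 64.9) were absent from GFP DOX, beside 70.3% of all peaks. Of the GFP DOX end peaks, 52.9% (50.1 to 55.7) were absent from Cre DOX, beside 37.5% of all peaks. Among peaks at most 50% masked these shares were 57.6% (54.8 to 60.4) at ends and 70.4% (69.8 to 70.9) in all for Cre DOX, and 53.0% (50.0 to 56.0) and 64.3% (63.6 to 64.9) for GFP DOX. When the 60219 highest-scoring peaks of each list were kept, the ratio of ends turned to 0.697, with 833 ends in Cre DOX and 1195 in GFP DOX.

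**Figure D3:**
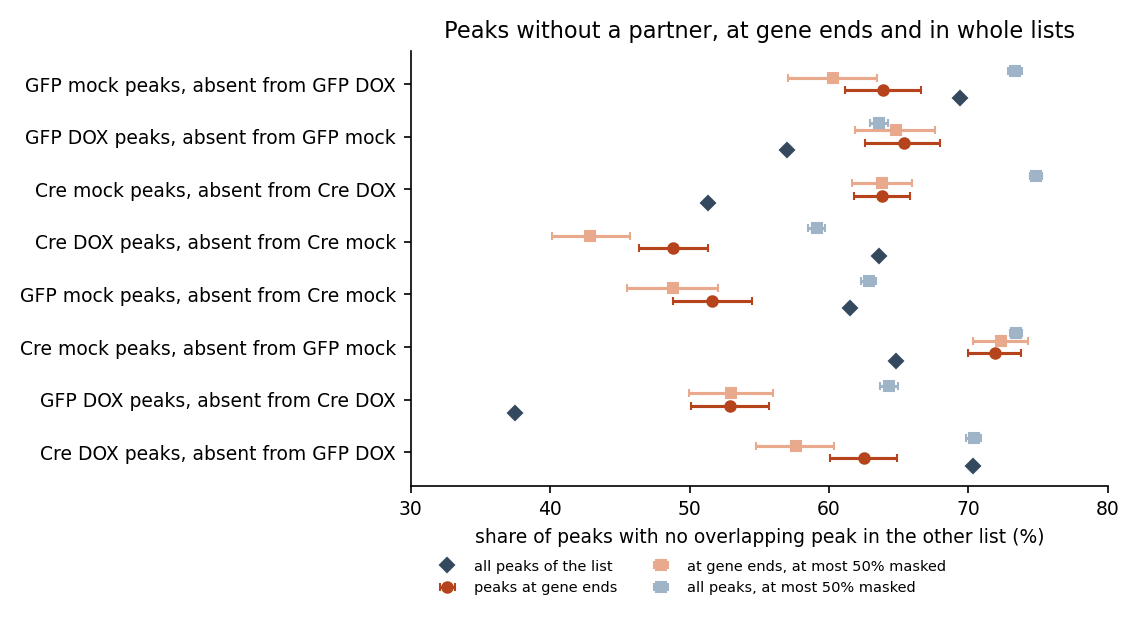
Share of the peaks of a list that overlapped no peak of the other list (x axis, %; from 30 to 80) for the 8 ordered pairs of lists (rows). Circles are peaks at gene ends and diamonds all peaks of the list, pale red and pale blue squares the same 2 sets restricted to peaks at most 50% repeat-masked, and bars (none drawn on diamonds) exact 95% counting intervals; for Cre mock peaks absent from Cre DOX the end peaks lie above all peaks (63.8% and 51.3%) and below all peaks outside repeats (74.9%).

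When the 4 lists were merged into 194867 regions, 3935 of them were at gene ends. Regions with a peak in Cre mock alone made up 27.2% of those at ends, beside 17.8% of all regions. Cre DOX alone held 15.1% at ends, beside 24.9% of all, GFP mock alone 12.1%, beside 17.0%, and GFP DOX alone 9.22%, beside 6.73%. Regions in all 4 lists were 11.46% of those at ends, beside 8.91% of all. Regions in both mock lists and in neither doxycycline list were few, 2.97% at ends beside 2.63% of all, as were those in both doxycycline lists and in neither mock list, 1.60% beside 2.30%. Counted by end, 773 ends had a peak in Cre mock alone, 434 in Cre DOX alone, 361 in GFP mock alone and 206 in GFP DOX alone. Another 368 ends had a peak in all 4 lists, 145 in both mock lists alone and 74 in both doxycycline lists alone.

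Convergent ends, at which a protein-coding gene on the opposite strand ended within 2 kb, had peaks more often than isolated ends, with no other annotated gene within 5 kb. The share was 14.6% (13.0 to 16.3) against 5.95% (5.47 to 6.45) in GFP mock, 18.2% (16.5 to 20.0) against 4.83% (4.41 to 5.29) in GFP DOX, 28.5% (26.4 to 30.6) against 9.18% (8.60 to 9.79) in Cre mock and 19.9% (18.1 to 21.8) against 7.46% (6.93 to 8.02) in Cre DOX. Counts at convergent ends are not independent, since the 2 ends of a pair can share a peak. In Cre mock the 537 convergent ends with a peak had 369 distinct best peaks. Convergent windows were also richer in GC, with a median of 47.5% against 42.6%.

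GC content was therefore held in view by splitting all ends into 5 equal groups. In the GC-poorest group convergent ends had no peak in either GFP list (0 of 208, which allows a share of up to 1.44%), whereas isolated ends had peaks at 2.58% in GFP mock and 1.61% in GFP DOX. In the Cre lists the same group stood at 3.85% of convergent and 2.63% of isolated ends (Cre mock) and at 4.33% and 4.84% (Cre DOX). Convergent ends of GFP mock also lay below isolated ends in the next 2 groups, at 1.66% against 2.86% and 3.47% against 4.49%, on 4 and 10 convergent ends with a peak. In the other lists they lay above them in these 2 groups, by the least in Cre DOX (4.98% against 4.93%) and by the most in Cre mock (12.8% against 7.46%). In the GC-richest group convergent ends had peaks at 29.9% in GFP mock and 33.5% in GFP DOX, and at 46.7% in Cre mock against 32.5% in Cre DOX. Isolated ends of that group had peaks at 15.4%, 14.7%, 23.8% and 14.1% in the same order. In the second-richest group the shares were close in GFP mock, 8.36% for convergent and 8.09% for isolated ends, and apart in the other lists, with 17.0% and 6.53% in GFP DOX, 31.1% and 13.3% in Cre mock, and 20.1% and 10% in Cre DOX. Transcripts that overlapped at their tails and pairs with a gap of up to 1 kb were alike in Cre mock, between 29.5% and 33.5%, and pairs with a gap of over 1 kb had peaks at 22.6% (19.2 to 26.3) of ends.

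**Figure D4:**
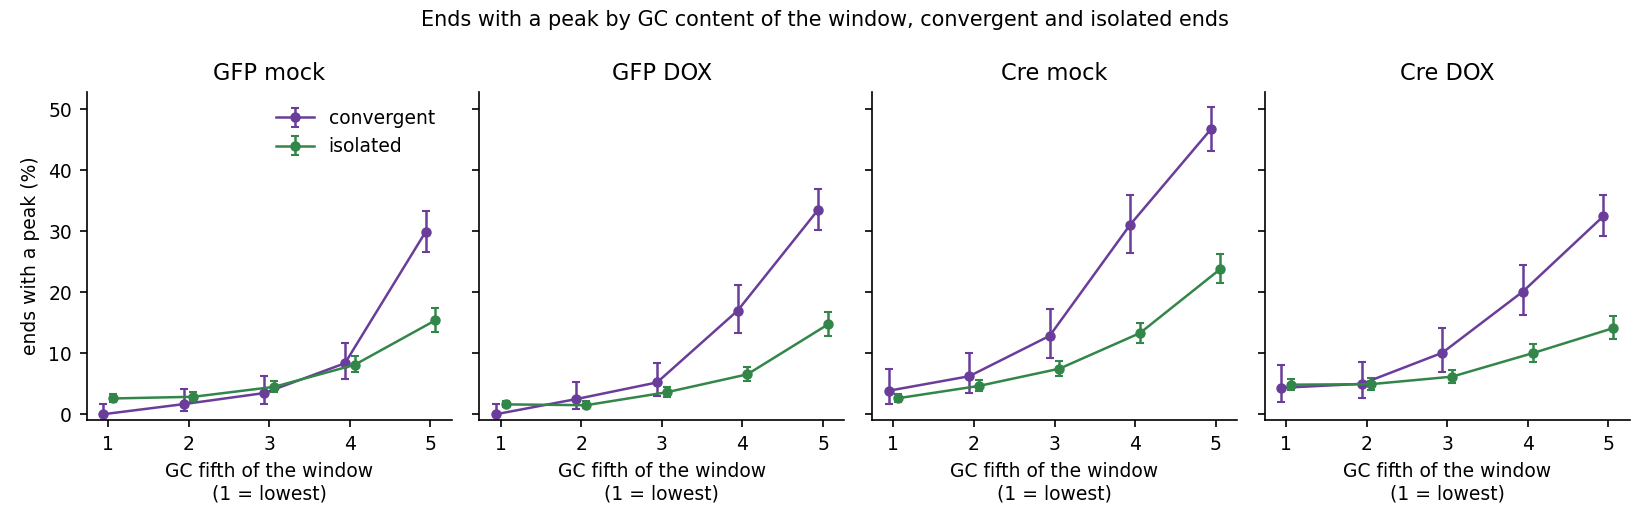
Share of ends with a peak (y axis, %) by GC content of the window in 5 equal groups of all ends (x axis, 1 = lowest), for convergent and isolated ends in each list, with exact 95% counting intervals. In the richest group convergent ends lie above isolated ends in every list, and Cre mock reaches 46.7% for convergent and 23.8% for isolated ends; in the poorest group of the GFP lists they lie below, at 0.

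Peaks did not pile up at the end itself. The last base of the gene lay inside 13.9% of the end peaks in GFP mock, while for GFP DOX the share was 21.8%, for Cre mock 22.6% and for Cre DOX 23.7%. Averaged over all ends, the 1 kb past the end was covered 1.03 times as much as the 1 kb before it in GFP mock, 0.897 times in GFP DOX, 0.909 times in Cre mock and 1.16 times in Cre DOX. Isolated ends showed the downstream shift of Cre DOX most plainly, with 1.55% of the last 1 kb of the gene covered, 2.10% of the first 1 kb past the end and 2.55% of the next. In Cre mock the same 3 stretches were covered to 2.24%, 2.05% and 1.99%. In GFP mock the coverage of isolated ends was lowest in the last 100 bp of the gene, at 0.663%, where their mean GC content dipped to 34.99%. The windows lie over last exons by construction, and 47.9% to 60.2% of end peaks overlapped an untranslated exon and 26.7% to 32.6% a coding exon.

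**Figure D5:**
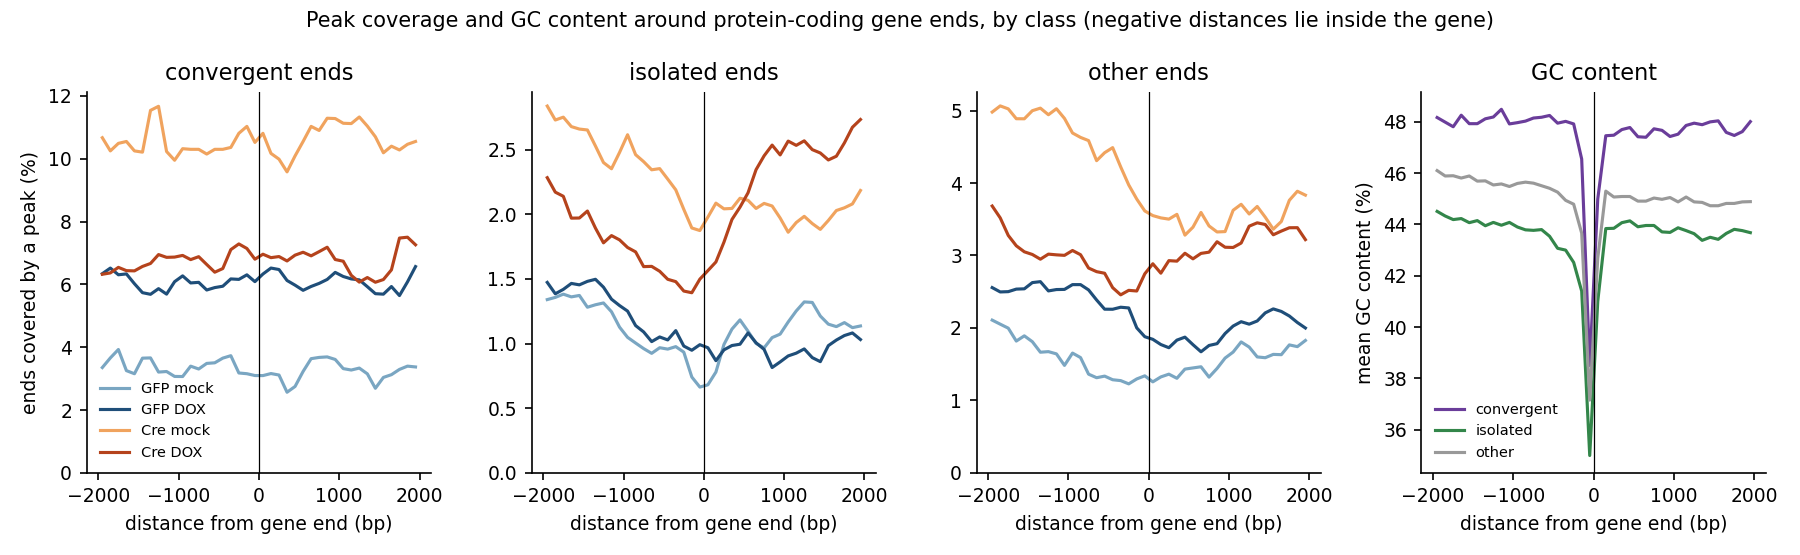
Share of ends covered by a peak (y axis, %) in bins of 100 bp from 2 kb before to 2 kb past the gene end (x axis, bp; negative values lie inside the gene), for convergent, isolated and other ends in the 4 lists, and mean GC content of the same bins (right). Coverage runs flat across convergent ends at different heights, up to 11.7% in Cre mock, and past isolated ends the Cre DOX line crosses above Cre mock. Each coverage panel has its own scale and counts all peaks, repeats included.

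Sequence features moved with the number of lists in which an end had a peak. From ends without a peak to ends with a peak in all 4 lists, median GC content of the window went from 42.6% through 47.3% (1 list), 48.7% (2 lists) and 49.6% (3 lists) to 51.7%. Predicted G4s on the coding strand (G4Hunter score of at least 1.5 over 25 bases) were present at 40.6% (39.7 to 41.4) of ends without a peak and 73.4% (68.5 to 77.8) of ends in all 4 lists, and on the template strand at 44.3% (43.4 to 45.1) and 69.0% (64.0 to 73.7). Past the end alone, ends in all 4 lists held them at 51.9% (46.7 to 57.1) on the coding and 41.8% (36.8 to 47.1) on the template strand, with intervals that just overlapped. Among ends without a peak the strands were at 25.8% and 27.6%. Runs of at least 3 G on the coding strand, the kind in capitals above, numbered 10 per kb past the end (median) at ends without a peak and 17 at ends with a peak in all 4 lists.

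The link with predicted G4s was also read within GC groups. In the richest group, ends with a predicted G4 on both strands had a peak in Cre mock at 33.0%, on the coding strand alone at 31.0%, on the template strand alone at 26.8% and on neither at 23.4%. In the second-richest group the values were 16.2%, 18.7%, 18.6% and 15.9%, so that no such order was seen in Cre mock. In GFP mock ends with a predicted G4 on both strands had peaks more often than ends with none in both groups, at 23.5% against 10.4% in the richest and 10.5% against 5.76% in the second-richest. The middle group of GFP mock stood at 6.22% and 2.95%, and the poorest at 1.76% and 1.77%. The restriction fragment that held the end, which bounds what an immunoprecipitation can resolve, had a median length of 907 bp at ends without a peak and 2317 bp at ends in all 4 lists. Its part in the result was not tested.

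Short genes had peaks at their ends more often than long ones. In Cre mock a peak was called at 15.0% of the ends of genes under 10 kb, 15.7% for 10 to 30 kb, 11.6% for 30 to 100 kb and 6.30% over 100 kb. In GFP mock the same groups stood at 10.5%, 8.08%, 6.31% and 3.63%, in GFP DOX at 10.1%, 8.45%, 6.04% and 3.28%, and in Cre DOX from 13.3% under 10 kb down to 3.54% over 100 kb. Genes with a peak at a promoter had one at the end more often too. In Cre mock 23.0% (21.9 to 24.1) of genes with a promoter peak had an end peak and 7.58% (7.08 to 8.11) of genes without. These shares were 12.4% and 5.49% in GFP mock, 16.8% and 4.47% in GFP DOX and 18.7% and 6.57% in Cre DOX. In the GC-richest group of Cre mock they were 41.9% and 19.3%, and in the middle group 14.5% and 5.96%. Chromosomes 15 and 11 had the highest shares in Cre mock, 24.7% of 590 and 22.2% of 1133 ends, and chromosome 15 with 15.3% and chromosome 11 with 12.4% also led in GFP mock. None of the 114 ends on chromosome Y had a peak in any list.

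Of the ends with a peak in all 4 lists, those of best mean rank are given first, and 3 of them had copies of their peak sequence elsewhere. *Lars2*, the gene of mitochondrial leucyl-tRNA synthetase, had the best mean rank. Its peaks lay before the end over coding and untranslated exon, with scores of 801 in GFP mock and 961 in GFP DOX, and of 1355 in Cre mock and 1175 in Cre DOX. They were among the 13 strongest peaks of each list, and in GFP mock the peak was at chr9:123461297-123462200. The peak sequence had 5 further matches of at least 100 bases at 95% identity or more in the genome, the best of 244 bases on chromosome 12. *Wls*, which carries Wnt proteins to the cell surface, had peaks across its end with scores of 739, 747, 972 and 1131 in the same order and fold enrichments from 26.4 to 32.8. At least 104 other matches of its peak sequence were found. *Mid1*, on the X chromosome across the pseudoautosomal boundary, had scores of 367, 358, 411 and 507, *Znhit1*, which encodes a zinc finger protein of a chromatin remodelling complex, 277, 282, 427 and 256, and *Fam171a1* 131, 51, 89 and 63. The peak sequences of *Znhit1* and *Fam171a1* had no other match of that kind.

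Some ends had a peak in a single list. In Cre mock alone the highest were at *Deaf1* (score 75, in an intron), which encodes a transcription factor, *Slc39a2* (73, past the end), a zinc transporter gene, *Nsfl1c* (61), *Akap3* (52) and *Htra1* (51), a secreted protease gene. They ranked between 970 and 2465 among the 91097 peaks of the list. In GFP mock alone they were *Upk3bl* (102), *Aire* (49), *Mmd2* (46), *Prune1* (46) and *Wif1* (44), an inhibitor of Wnt signalling. Of these peaks of GFP mock, *Upk3bl* was 78% repeat-masked with 385 other matches, *Aire* wholly masked with 2381, and *Mmd2* and *Prune1* were 90.8% and 95.5% masked. The *Nsfl1c* peak of 161 bp had 1 other match, and the *Slc39a2* and *Wif1* peaks had none. In Cre DOX alone the highest were *Olfr1110* (52), *Vmn1r29* (40) and *Tfpi2* (38), all at least 96.5% masked. In GFP DOX alone they were *Mup19* (53), *Lrrc25* (39) and *Tmem176a* (39), and the *Mup19* peak, in a multigene family, had 14 other matches.

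Ends with a peak in both mock lists and in neither doxycycline list were led by *Emx1*, a homeobox gene, whose peak past the end scored 85 in GFP mock and 189 in Cre mock. *Dpp6* (86 and 54), *Msx1* (43 and 137), *Apol11b* (50 and 52) and *St8sia1* (120 and 35) followed. Ends with a peak in both doxycycline lists alone had poorer mean ranks, with *Prl3d2* at 29 in GFP DOX and 28 in Cre DOX, *Slc30a4* at 19 and 80, and *Lrif1* at 20 and 35. The peaks of *Prl3d2* and *Lrif1* were at least 96.8% masked.

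Among convergent pairs with a peak in all 4 lists, *Lzts2* and *Pdzd7* on chromosome 19 shared 1 peak in each list. It measured 5986 bp and scored 26 in GFP mock, 6580 bp and 28 in GFP DOX, 6541 bp and 43 in Cre mock, and 6516 bp and 43 in Cre DOX. At *Cers2*, a ceramide synthase gene, and *Setdb1*, which encodes a histone H3K9 methyltransferase, the lists differed. GFP mock had separate short peaks of 143 and 222 bp, and the other lists had 1 peak across both ends, measuring 9446 bp (GFP DOX), 10226 bp (Cre mock) and 8815 bp (Cre DOX). Scores were 25 and 18 for the short peaks and 31, 56 and 37 for the long ones. At *Ntmt1* and *Asb6* the peak measured 5486 bp without and 11104 bp with doxycycline in the GFP lists (scores 24 and 33), and 9380 and 7150 bp in the Cre lists (scores 55 and 39). In all 3 pairs the score was highest in Cre mock, shared with Cre DOX at *Lzts2* and *Pdzd7*.

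Genes with known roles at transcript ends were looked up by list. Of 4 genes with studied pause sites, 2 had an end clear of transcript starts. *Akirin1* had no peak in GFP mock, and its scores were 13 (GFP DOX), 16 (Cre mock) and 11 (Cre DOX) in the other lists. The Cre DOX peak lay across the end, and those of GFP DOX and Cre mock began 483 and 708 bp past it. *Ensa* had 1 peak, in Cre mock (16), before its end. Of 23 genes for cleavage, polyadenylation and termination factors, 17 had an end clear of starts, of which 2 had a peak in GFP mock (11.8%, 1.46 to 36.4) and 3 in each other list (17.6%, 3.8 to 43.4). These wide intervals include the shares of all ends, 7.58% and 7.47% in the GFP lists (mock, then DOX) and 13.0% and 9.73% in the Cre lists. *Pabpn1*, a poly(A) binding protein gene, had peaks in GFP DOX (13), Cre mock (17) and Cre DOX (19), *Rbbp6*, a cleavage factor gene, in GFP mock (15), Cre mock (24) and Cre DOX (17), and *Scaf4* in GFP DOX (12). The scores of these 3 genes lay between 12 and 24, beside medians of 16 to 19 for all end peaks of a list.

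Fibroblast genes are strongly transcribed in MEFs, and of 25 listed, 21 had an end clear of starts. In GFP mock 2 of these had a peak (9.52%, 1.17 to 30.4, beside 7.58% of all ends) and in GFP DOX 4 (19.0%, 5.45 to 41.9, beside 7.47%). In Cre mock 7 had one (33.3%, 14.6 to 57, beside 13.0%) and in Cre DOX 5 (23.8%, 8.22 to 47.2, beside 9.73%). The interval lay apart from the share of all ends in Cre mock alone. *Col1a1*, singled out after its values were seen, had scores of 13, 21, 29 and 15 in that order of lists, with a peak of 310 bp before the end in GFP mock, peaks of 1287 and 1321 bp reaching past it in GFP DOX and Cre mock, and 236 bp past it in Cre DOX, the stretch printed above. *Sparc*, which encodes a matrix protein, had similar scores in every list, 23, 25, 28 and 29. *Ccn1*, which encodes a secreted matrix protein, had peaks in GFP DOX (14), Cre mock (18) and Cre DOX (35), *Vim*, a gene of the cytoskeleton, across its end in Cre mock alone (27), and *Col6a2*, which encodes a chain of type VI collagen, in GFP DOX (13) and Cre mock (23). DRIP peaks are no measure of expression, so that these genes do not check the cell type.

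Cytosolic ribosomal protein genes are short and highly transcribed, and 15 of 85 had an end clear of starts. A peak was called at 2 of these in GFP mock (13.3%, beside 7.58% of all ends) and 6 in GFP DOX (40%, beside 7.47%). In Cre mock 12 had one (80%, beside 13.0%) and in Cre DOX 10 (66.7%, beside 9.73%). *Rpl8* had no peak in GFP mock and scores of 57, 96 and 90 in GFP DOX, Cre mock and Cre DOX. *Rpl38* had none in GFP mock either and 35, 39 and 48 in the others, and *Rps6* none and 20, 47 and 31. These peaks ran over much of the gene. Those of *Rpl8* were 3113 to 3235 bp wide and stopped 52 to 86 bp before the end, and those of *Rpl38* were up to 7430 bp wide. *Rpl12* had peaks in the Cre lists alone, with 34 in Cre mock and 44 in Cre DOX, 4501 and 4188 bp wide and wholly before the end. *Rps24*, whose sequence is printed above, had peaks across its end in every list, with scores of 13 and 18 in the GFP lists and 36 and 26 in the Cre lists, and widths of 106, 458, 1241 and 969 bp in the same order.

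Of 67 replication-dependent histone genes, whose transcripts are not polyadenylated, 6 had an end clear of starts and none of these had a peak in any list, which by the limit of 3 counts allows a share of up to 50%. Zinc finger genes had peaks at 26 of 332 ends in GFP mock, at 17 in GFP DOX and at 32 in either Cre list. These shares of 7.83%, 5.12% and, in both Cre lists, 9.64% lay near or below those of all ends, 7.58% and 7.47% in the GFP lists and 13.0% and 9.73% in the Cre lists. Odorant and vomeronasal receptor genes are silent in fibroblasts and lie in clustered families, and 906 of their ends were clear of starts. A peak was called at 47 of these without (5.19%) and 17 with doxycycline (1.88%) in the GFP lists, and at 36 (3.97%) and 85 (9.38%) in the Cre lists. All ends stood at 7.58%, 7.47%, 13.0% and 9.73% in the same order, above these genes in every list. The receptor ends were poor in GC, with a median of 37.7%. All ends of the GC-poorest group stood at 2.20% and 1.60% in the GFP lists and 2.95% and 4.27% in the Cre lists. These lay below the receptor intervals in GFP mock and Cre DOX, and inside them in GFP DOX and Cre mock.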

How the data were processed

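Peaks were those of 4 DRIP libraries of *Rtel1*F/F;WT RNH1-GFP MEFs, 1 per group. DNA was cut with 5 restriction enzymes, immunoprecipitated with the S9.6 antibody, and sequenced. The authors ran nf-core/chipseq with BWA on mm10 and MACS2 broad peaks, although the command they give names the narrow option, and whether the inputs served as controls is not stated in the sources used here. Scores were deposited as the −log10 q-value of the peak multiplied by 10 and rounded, and the deposited fold enrichment is the ratio given by MACS2. Read depth is unknown, so that list sizes may differ through depth. Every peak was used, down to a score of 10, whereas the study keeps the top decile of scores, which was run as an alternative.

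Ends, exons and starts came from GENCODE M21 on mm10, and sequences, masking and GC content from the RefSeq mm10 assembly. Peaks were assigned by 1 bp of overlap. Shares have exact 95% intervals (Clopper-Pearson), and ratios of counts have exact intervals from the binomial share, for counting error only. The intervals of ratios ignore that both lists are counted over the same ends and that paired ends can share a peak. For a count of 0 out of n ends the limit is 3 counts of n. Copies of peak sequences were matches by blastn (2.17.0) of at least 100 bases at 95% identity. G4s were predicted by G4Hunter (25 bases, threshold 1.5). Overlaps and counts were tested on simulated peaks. Python (3.11.15), numpy (2.4.6), pandas (2.3.3) and scipy (1.17.1) were used. Samples were grouped by their labels. With 1 library per group no test between groups was made.

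Named ends were those with the best mean score rank in all 4 lists (5), in Cre mock or GFP mock alone (5 each), in a doxycycline list alone (3 each), in both mock lists (5) or both doxycycline lists alone (3), the 3 best convergent pairs, and listed genes with a peak. The gene ends and the gene lists were chosen with earlier results of these data known. The 10 alternative settings were the top decile of score, a −log10 q of at least 2, equal numbers of highest-scoring peaks, peaks of at least 250 bp, peaks at most 50% masked, peak midpoints, windows of 500 bp and 2 kb, windows near starts kept in, and wider class limits. Some items are not reported here.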

Additional observations from a re-analysis of the deposited data

Results flagged for a closer look

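The ratios with over without doxycycline lay on opposite sides of 1 with and without *Rtel1* for 7 measures, given as GFP DOX over GFP mock and then Cre DOX over Cre mock. Each ratio compares 1 library with 1 other, and the difference between the ratios was not tested. Their intervals treat the lists as independent counts, although the same ends are counted in both. The number of end peaks was 1.02 (0.940 to 1.10, which includes no change) and 0.713 (0.668 to 0.760) times as large. The covered length of end windows was 1.39 and 0.758 times as large. Convergent ends with a peak were 1.25 (1.06 to 1.47) and 0.700 (0.612 to 0.800) times as many, and other ends 1.04 (0.906 to 1.202, which includes no change) and 0.702 (0.624 to 0.788) times. Among fibroblast genes the ratios were 2 (0.287 to 22.1) and 0.714 (0.179 to 2.61), and among ribosomal protein genes 3 (0.536 to 30.4) and 0.833 (0.323 to 2.10), on few genes and with intervals that include no change. Odorant and vomeronasal receptor genes stood at 0.362 (0.195 to 0.642) and 2.36 (1.58 to 3.59), in the direction of the whole lists, in which all peaks were 0.687 and 1.15 times as many and those between genes 0.653 and 1.495 times. Among peaks at most 50% masked the whole lists stood at 0.699 and 0.623, both below 1, and peaks between genes at 0.463 and 0.736.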

How the results depend on the processing

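Of 73 values under alternative settings, 22 moved by less than the counting interval, 50 moved by more and 1, of a ratio whose interval excluded 1, turned direction. The cause of these moves was not tested. The ratios of ends with a peak are given below in the order Cre mock over GFP mock (1.72), GFP DOX over GFP mock (0.986), Cre DOX over Cre mock (0.746) and Cre DOX over GFP DOX (1.30). In the top decile of score they were 1.90, 1.09, 0.661 and 1.15, at a −log10 q of at least 2 they were 2.13, 0.860, 0.582 and 1.44, for peaks of at least 250 bp 2.17, 1.21, 0.835 and 1.5, and for peaks at most 50% masked 1.94, 1.11, 0.650 and 1.14. With equal numbers of peaks (the 60219 of highest score) the last 3 were 1.44, 0.562 and 0.697, so that Cre DOX over GFP DOX turned. Windows of 500 bp gave 1.97 and 1.15 for the first 2, and windows of 2 kb gave 1.51 and 0.864. GFP DOX over GFP mock, whose own interval includes 1, thus lay above or below 1 with the setting. The other 3 kept their side of 1 in every alternative save Cre DOX over GFP DOX with equal numbers of peaks. In the top decile the interval of that ratio, 0.900 to 1.48, includes 1.

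In these shares each setting was applied to both lists. Over all peaks the main values, in the order below, were 64.8%, 69.4% and 51.3%. The share over all peaks was not computed where a setting filtered the peaks, so the values there cannot be read against the whole list. The share of Cre mock end peaks absent from GFP mock (71.9%) was 74.4% at a −log10 q of at least 2, 74.0% from 250 bp, 73.8% at most 50% masked, 77.5% by midpoint, 68.2% and 74.4% in windows of 500 bp and 2 kb, and 67.2% with windows near starts kept in. That of GFP mock absent from GFP DOX (63.9%) was 66.97% in the top decile, 71.4% at a −log10 q of at least 2, 58.8% with equal numbers of peaks, 58.2% from 250 bp, 60.7% at most 50% masked, 58.1% and 68.5% in windows of 500 bp and 2 kb, and 57.6% with windows near starts. That of Cre mock absent from Cre DOX (63.8%) was 74.9%, 70.5%, 69.3% and 59.0% under the first 4 of these settings, 69.1% by midpoint, 58.9% and 67.2% in windows of 500 bp and 2 kb, and 59.0% with windows near starts. Convergent minus isolated ends with a peak in Cre mock (19.3 percentage points) came to 2.36 in the top decile, where few ends have a peak, 13.2 at a −log10 q of at least 2, 16.2 with equal numbers, 13.8 by midpoint and 28.3 with windows near starts.

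No paired analysis was possible because each group has 1 library. The depth behind each list is unknown, so that an absent peak is one that was not called, not one shown to be missing.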
